A study of Mus musculus with 12 samples.

Results

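Cyp2d9, Cyp2d10, Cyp2d22, Cyp2d26, Cyp2a4, Cyp2a5, Cyp2a12 and Cyp2a22 are 8 cytochrome P450 genes of the Cyp2d and Cyp2a subfamilies, described here across liver samples of female mice with and without estrogen receptor alpha. They were followed through every probe set whose platform annotation names one of them. Of the 8 genes, 7 were measured, among 19324 genes with a probe set, through 7 of the 45101 probe sets on the array: 1 each for Cyp2d9, Cyp2d10, Cyp2d26 and Cyp2a12, 2 for Cyp2d22, and 1 that lists both Cyp2a4 and Cyp2a5. No probe set lists Cyp2a22, which has no value here. The shared probe set cannot tell Cyp2a4 from Cyp2a5, and its value is given for the pair.

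Livers of adult B6.129 females were profiled, either wild type (WT, Esr1+/+) or αERKO (Esr1-/-), which lack both intact copies of the receptor gene Esr1. The labels name no Cre or tissue restriction for the knockout. Mice of each genotype ate NIH-31 chow (normal diet) or a Research Diets feed with 60 kcal% fat (high-fat diet), with a feeding period of 2 weeks. There were 3 samples in each of 4 groups, and 1 array for each sample. The labels do not say that replicates came from separate animals, so the p-values cover only how far these samples spread, part or all of which may be technical.

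Cytochromes P450 of the Cyp2 family are heme enzymes of the endoplasmic reticulum that take electrons from P450 reductase or cytochrome b5 and hydroxylate steroids, drugs and other small lipophilic molecules. Several are expressed at different levels in male and female mouse liver, a pattern set largely by the sex-specific rhythm of growth hormone secretion. Cyp2d9 is the classical male-biased member, a testosterone hydroxylase, whereas Cyp2a4, another testosterone hydroxylase, is known as female-biased. Cyp2a5 oxidises coumarin and nicotine and is found in hepatocytes around the central vein, Cyp2a12 hydroxylates testosterone, and Cyp2d22 is often treated as the mouse counterpart of the main human drug-metabolising enzyme of the subfamily.

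Both subfamilies lie in clusters of near copies, and the DNA just before their start sites shows how close the copies are. The 250 bases before the start of Cyp2d9 (chr15:82452127-82452376, plus strand) and of its neighbour in RefSeq's order of protein-coding genes, Cyp2d10 (chr15:82407195-82407444, minus strand) are shown first, because these neighbours gave unlike genotype differences. Sequences run 5′ to 3′ and come from RefSeq on GRCm38.p6, a build that served only to find them. Capitals mark bases that differ from the partner or have no partner in the alignment.
Cyp2d9: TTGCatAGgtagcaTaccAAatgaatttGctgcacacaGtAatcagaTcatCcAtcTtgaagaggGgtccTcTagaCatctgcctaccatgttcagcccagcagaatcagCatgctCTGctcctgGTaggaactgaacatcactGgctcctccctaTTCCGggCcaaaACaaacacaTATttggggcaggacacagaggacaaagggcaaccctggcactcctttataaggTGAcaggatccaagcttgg
Cyp2d10: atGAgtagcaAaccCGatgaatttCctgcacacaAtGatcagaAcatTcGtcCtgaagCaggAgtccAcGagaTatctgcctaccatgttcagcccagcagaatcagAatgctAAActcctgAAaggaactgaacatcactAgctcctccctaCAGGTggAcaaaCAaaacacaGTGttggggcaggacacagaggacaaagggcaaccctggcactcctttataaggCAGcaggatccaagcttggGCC
Of 246 aligned bases, 209 were identical (85.0%). The longest identical run was 51 bases, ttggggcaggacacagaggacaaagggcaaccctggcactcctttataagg, from 70 to 20 bases before the Cyp2d9 start. Against Cyp2d11, a near copy with no probe set in the annotation, Cyp2d9 was identical at 93.6% of 234 aligned bases.

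The corresponding 250 bases of Cyp2a4 (chr7:26306942-26307191, plus strand) and Cyp2a5 (chr7:26835089-26835338, plus strand) are shown because 1 probe set reads both genes, with capitals as above.
Cyp2a4: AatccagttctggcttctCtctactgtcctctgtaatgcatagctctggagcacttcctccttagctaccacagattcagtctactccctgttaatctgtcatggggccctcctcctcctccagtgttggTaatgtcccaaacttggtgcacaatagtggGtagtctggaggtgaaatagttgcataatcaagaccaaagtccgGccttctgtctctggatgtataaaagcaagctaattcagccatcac
Cyp2a5: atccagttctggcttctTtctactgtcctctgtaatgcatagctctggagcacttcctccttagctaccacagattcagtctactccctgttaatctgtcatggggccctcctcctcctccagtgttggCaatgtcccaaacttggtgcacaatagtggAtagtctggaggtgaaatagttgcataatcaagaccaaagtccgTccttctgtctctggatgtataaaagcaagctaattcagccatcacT
Only 4 of 249 aligned bases differed (98.4% identity), and the longest identical run was 111 bases. Cyp2a12 and Cyp2a22 were identical at 91.8% of 232 aligned bases. Promoter windows of 300 bases, which also hold the first transcribed bases, were found for 7 of the 8 genes, and Cyp2d22 had none in the table. None of the 7 held, on either strand, any of the motifs sought, of which none contains another. These were TTCNNNGAA (STAT5), an estrogen response element (AGGTCA, any 3 bases, TGACC, which is not a full palindrome), CAAAGTCCA (HNF4A), TTGCGCAA (C/EBP) and CCGGAAGT (GABP). Of all 32851 windows in the table, 8.3%, 0.0548%, 0.475%, 0.183% and 3.89% held them, in that order. These letters are therefore not in these windows, which says nothing of the factors themselves.

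Array medians ranged from 75.6 to 114 and the brightest probe set of each array from 69500 to 96100. All 7 measured hepatocyte markers, of 8 listed, lay above the array median on all 12 arrays. Of these 7, 1 was called lower in αERKO on normal diet (adjusted p under 0.05, limma) and 0 on high-fat diet. Over all tested probe sets, 0.677% and 1.29% were called in either direction. The median differences of the 7 markers were -0.19 and -0.12, beside -0.049 and -0.055 over all tested. The part of the hepatocyte level in the differences below was not tested. Of 3 Esr1 probe sets, the brightest gave 1963 to 3930 in WT and 586 to 885 in αERKO. Pancreatic acinar transcripts were high on 4 arrays, with a mean log2 signal over 8 acinar genes of 10.24 to 14.1 on them against 5.47 to 6.48 on the other 8. The 4 were the second array of WT normal, the first of αERKO normal and the last 2 of WT high-fat, so no αERKO high-fat array was among them. Skeletal muscle transcripts, scored over 10 genes, reached 10.28 on that αERKO normal array and 8.29 on the second of αERKO high-fat, with 5.49 to 7.12 elsewhere. For the 7 Cyp2d and Cyp2a probe sets, but not for listed genes, values without the 4 acinar arrays are given below where they bear on a call. Leaving them out leaves WT high-fat with 1 array, assumed in those fits to vary like the other groups, so their adjusted p-values for high-fat diet do not measure the spread of that group.

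The genotype comparison on each diet asks how the liver differs without the receptor. Cyp2d9 was far brighter without the receptor, and no knockout array came near a wild type one. Its signals were 2168, 1838 and 2441 in WT normal replicates 1 to 3, 3242, 3226 and 2177 in WT high-fat, 29683, 29416 and 28452 in αERKO normal, and 27396, 30587 and 25348 in αERKO high-fat. The lowest knockout value, 25348, stood far above the highest wild type value, 3242, on either diet. Group means were 2150 ± 302 (SD, n = 3) in WT normal, 2880 ± 610 in WT high-fat, 29200 ± 647 in αERKO normal and 27800 ± 2640 in αERKO high-fat. On the scale of log2(signal + 16), αERKO exceeded WT by 3.76 ± 0.15 (SE) on normal diet, or 13.6-fold (95% interval 10.9 to 16.9, adjusted p = 2.23e-09, limma). On high-fat diet the difference was 3.28 ± 0.15, or 9.72-fold (7.82 to 12.1, adjusted p = 1.38e-08, limma). Without the 4 acinar arrays the difference was 3.64 (adjusted p = 2.76e-07) on normal diet, and on high-fat diet, against the 1 remaining WT array, it was 3.09. Cyp2d9 ranked second of 25412 probe sets by p and 12th by size of the difference on normal diet, and 3rd and 30th on high-fat diet.

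**Figure D1:**
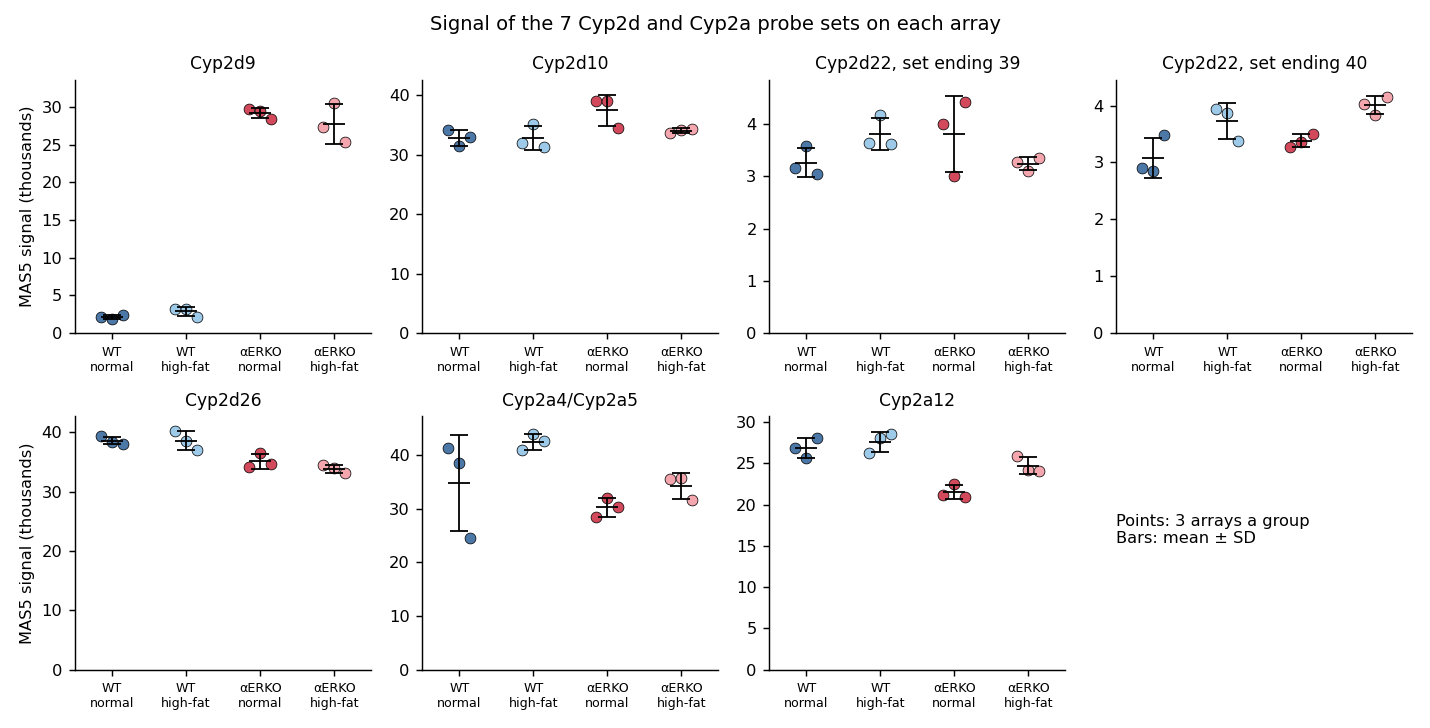
MAS5 signal divided by 1000 (vertical axis, from 0) of the 7 Cyp2d and Cyp2a probe sets on each of 12 arrays in 4 groups of genotype and diet; points are arrays, and bars are the mean ± SD of 3. Cyp2d9 lies between 1838 and 3242 in WT and between 25348 and 30587 in αERKO, while no other probe set separates the genotypes by as much; the Cyp2a4 and Cyp2a5 probe set varies from 24582 to 43974.

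Cyp2d9 was the only one of the 7 probe sets called in either comparison, that is, with an adjusted p under 0.05 over all 25412 tested. On normal diet 1 of 7 was called, against 0.677% of all probe sets, and on high-fat diet 1 of 7, against 1.29%. The median difference of the 7 was 0.14 on normal diet and -0.16 on high-fat diet, beside -0.049 and -0.055 over all tested. The other 6 had log2 differences from -0.32 to 0.21 on normal diet and from -0.31 to 0.11 on high-fat diet. Their 95% intervals reached at most 1.41-fold in either direction on normal diet and 1.54-fold on high-fat diet. Groups did not overlap for 4 of the 7 on normal diet and 5 of the 7 on high-fat diet, where 14.6% and 20.7% of all tested probe sets did not overlap.

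**Figure D2:**
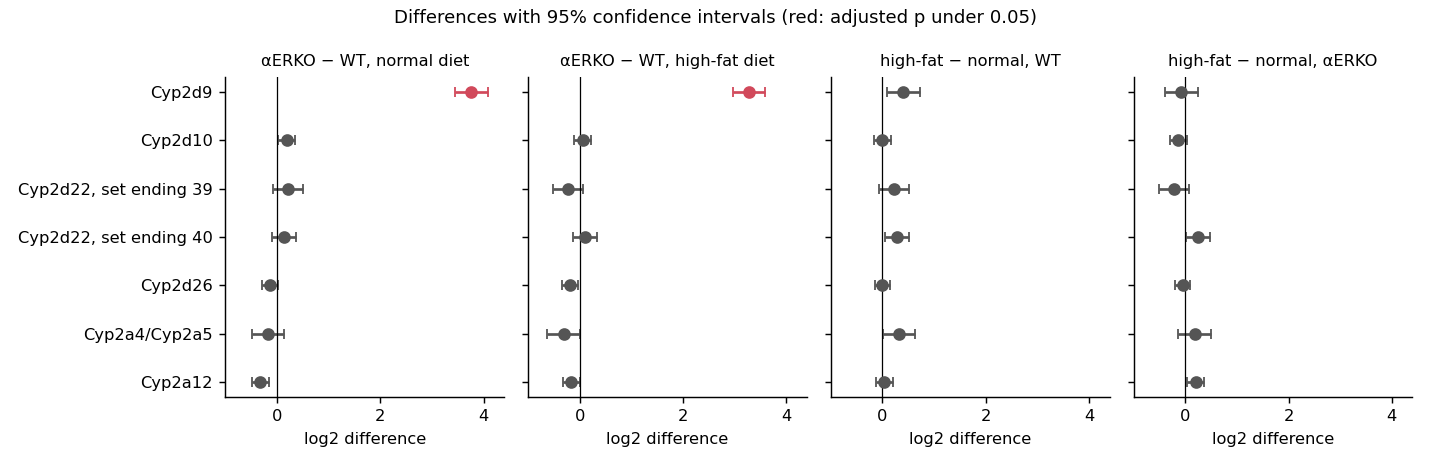
Log2 differences (horizontal axes) of the 7 probe sets with 95% intervals from the limma model, for αERKO minus WT on each diet and high-fat minus normal diet in each genotype; red points have an adjusted p under 0.05. Cyp2d9 stands at 3.76 and 3.28 in the genotype panels, and no point is red in the diet panels.

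Among the other Cyp2d genes, Cyp2d10 was bright in all samples, at 34055, 31443 and 32863 in WT normal, 31876, 35149 and 31283 in WT high-fat, 38987, 38947 and 34433 in αERKO normal, and 33570, 34162 and 34358 in αERKO high-fat. The knockout lay above WT in every sample on normal diet, and the groups overlapped on high-fat diet. The log2 difference was 0.19 ± 0.08 (adjusted p = 0.39, limma) on normal diet and 0.06 ± 0.08 on high-fat diet (adjusted p = 0.806, limma), with 95% intervals of 1.02-fold to 1.28-fold and 0.925-fold to 1.17-fold. These neighbours, Cyp2d9 and Cyp2d10, thus had intervals that lay far apart. Probe sequences were not used here, so how far transcripts of one gene bind probes of the other was not tested.

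The knockout values of Cyp2d26 lay slightly below those of WT, without a call on either diet. It gave 39386, 38412 and 38117 in WT normal, 40313, 38529 and 37021 in WT high-fat, 34187, 36519 and 34702 in αERKO normal, and 34519, 33930 and 33177 in αERKO high-fat. All 6 knockout values, 33177 to 36519, lay below all 6 wild type values, 37021 to 40313, as they did for 1.29% of tested probe sets. For Cyp2d9 all 6 lay above, as for 1.09%. In either direction the genotypes did not overlap for 2 of the 7, against 2.38% of those tested. The differences were -0.14 ± 0.07 (adjusted p = 0.496, limma) on normal diet and -0.19 ± 0.07 on high-fat diet (adjusted p = 0.226, limma). With median centring in place of the deposited scaling, the Cyp2d26 difference on normal diet was 0 (adjusted p = 0.996). That centring moved the differences of all tested probe sets by a median of 0.142 on normal diet and 0.101 on high-fat diet, so differences of this size are relative to the scaling. It also moved the share of calls that were higher in αERKO from 48.8% to 60.3% on normal diet and from 56.6% to 63.5% on high-fat diet, and for the average over both diets given below from 49.5% to 75.7%.

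The 2 probe sets of Cyp2d22 gave different patterns. Probe set 1419039_at gave 3164, 3582 and 3046 in WT normal, 3644, 4175 and 3629 in WT high-fat, 4007, 3001 and 4427 in αERKO normal, and 3274, 3109 and 3348 in αERKO high-fat. By it the knockout was lower than WT in every sample on high-fat diet (-0.23 ± 0.13, adjusted p = 0.482, limma), while the genotypes overlapped on normal diet (0.21 ± 0.13, adjusted p = 0.624, limma). Probe set 1419040_at gave 2842 to 3482 in WT normal, 3369 to 3940 in WT high-fat, 3277 to 3506 in αERKO normal and 3842 to 4160 in αERKO high-fat. By it the genotypes overlapped on both diets, with differences of 0.14 ± 0.11 (adjusted p = 0.682, limma) and 0.11 ± 0.11 (adjusted p = 0.716, limma). On high-fat diet the probe sets differed in sign, and neither was called.

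In the Cyp2a subfamily the group means were slightly lower in the knockout on each diet, also without a call. Cyp2a12 gave 26893, 25685 and 28060 in WT normal, 26255, 28095 and 28494 in WT high-fat, 21135, 22489 and 20899 in αERKO normal, and 25913, 24158 and 24056 in αERKO high-fat. The knockout was below WT in every sample on each diet. The difference was -0.32 ± 0.08 on normal diet, or a fold of 0.8 (95% interval 0.715 to 0.896, adjusted p = 0.0819, limma), and -0.16 ± 0.08 on high-fat diet (adjusted p = 0.369, limma). Neither passed the threshold.

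The probe set of Cyp2a4 and Cyp2a5 gave 41426, 38472 and 24582 in WT normal, 40993, 43974 and 42597 in WT high-fat, 28413, 32042 and 30326 in αERKO normal, and 35527, 35783 and 31562 in αERKO high-fat. WT normal replicate 3, at 24582, was the lowest of all 12 arrays, while the other 5 wild type values exceeded all 6 knockout values. That array also had the highest array median, 114, and its part in the result was not tested beyond leaving it out. The differences were -0.17 ± 0.15 (adjusted p = 0.73, limma) on normal diet and -0.31 ± 0.15 on high-fat diet (adjusted p = 0.363, limma). Without WT normal replicate 3 they were -0.40 ± 0.09 (adjusted p = 0.0723) and -0.31 ± 0.08 (adjusted p = 0.0639), still short of the threshold. Without WT normal replicate 1, in contrast, the first was -0.03 ± 0.15 (adjusted p = 0.961), so on normal diet its size rested on single arrays. Since Cyp2a5 is known from hepatocytes around the central vein, the score of 10 pericentral markers is set beside it: it ranged from 12.05 to 12.43 in WT normal, 12.08 to 12.15 in WT high-fat, 11.66 to 12.21 in αERKO normal and 11.98 to 12.18 in αERKO high-fat. These are whole-tissue arrays, in which fewer cells of a type and less RNA per cell cannot be told apart, and the part of the pericentral level was not tested.

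A comparison of the genotypes averaged over both diets was added after these values were seen, in the same fit. It called 816 of 25412 probe sets (3.21%, with 1.59% higher and 1.62% lower) and 2 of the 7. These were Cyp2d9, higher by 3.52 ± 0.10 (adjusted p = 5.99e-11, limma), and Cyp2a12, lower by a log2 difference of -0.24 ± 0.05 (adjusted p = 0.0249, limma). Cyp2d26 (-0.16 ± 0.05, adjusted p = 0.0889) and the Cyp2a4 and Cyp2a5 probe set (-0.24 ± 0.10, adjusted p = 0.243) were not called. The Cyp2a12 call was lost under 10 of 24 alternatives, over which its difference ranged from -0.26 to -0.12 and its adjusted p from 0.0155 to 0.603. Without the 4 acinar arrays, and so with 1 WT high-fat array, it was -0.21 (adjusted p = 0.35), and with median centring -0.12 (adjusted p = 0.603). Leaving out 1 array ended it for WT high-fat replicate 2 (adjusted p = 0.067), WT high-fat replicate 3 (adjusted p = 0.0644), αERKO normal replicate 1 (adjusted p = 0.0549), αERKO normal replicate 3 (adjusted p = 0.053) and αERKO high-fat replicate 2 (adjusted p = 0.0737). Without WT normal replicate 3 the Cyp2a4 and Cyp2a5 probe set was called as well (-0.36 ± 0.06, adjusted p = 0.00478).

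**Figure D3:**
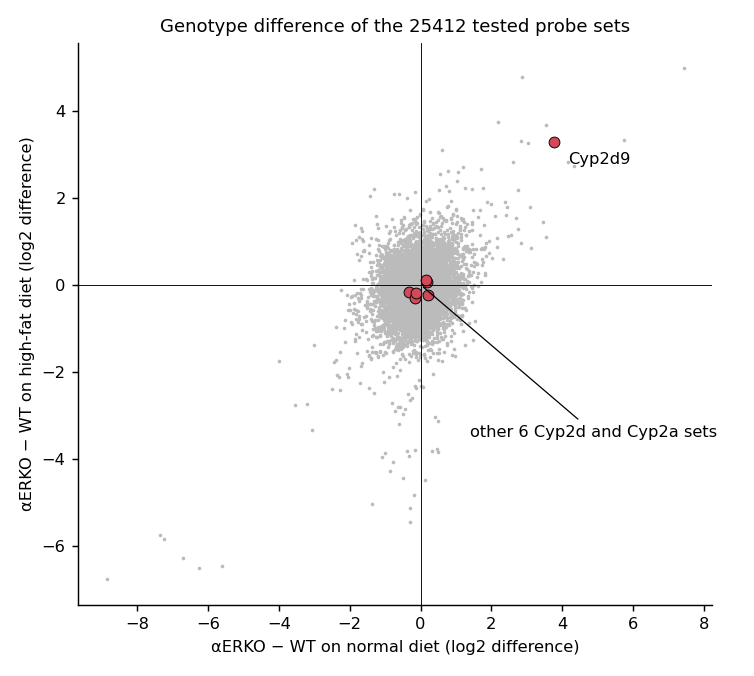
Log2 difference αERKO minus WT on normal diet (horizontal axis) and on high-fat diet (vertical axis) for each of the 25412 tested probe sets (grey), with the 7 Cyp2d and Cyp2a probe sets in red. Cyp2d9 lies at 3.76 and 3.28, and the other 6 lie between -0.32 and 0.21 on both axes.

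The diet comparison within each genotype asks how these genes respond to the fat-rich feed. None of the 7 probe sets was called by limma in WT, where 0.0275% of all tested probe sets were called, or in αERKO, where 0.181% were. Groups did not overlap for 1 of 7 in WT and 3 of 7 in αERKO, against 13% and 15.1% of all tested. At an unadjusted p under 0.05 there were 3 of 7 in WT and 2 of 7 in αERKO, against 7.54% and 9.26% of all tested. The median of the 7 was 0.22 in WT and -0.052 in αERKO, beside -0.0069 and -0.01 over all tested. The 2 diet comparisons share no arrays, but each shares 1 group with each genotype comparison.

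For Cyp2d9 the diet difference was 0.41 ± 0.15 in WT (adjusted p = 0.511, limma), where WT high-fat replicate 3 (2177) fell within the range of the normal diet samples. In αERKO it was -0.08 ± 0.15 (adjusted p = 0.927, limma) with overlapping groups. The order of its group means was αERKO normal, αERKO high-fat, WT high-fat and WT normal, and overlap between neighbours was absent only at the step between genotypes.

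Cyp2d22 by probe set 1419040_at had diet differences of 0.28 ± 0.11 in WT (adjusted p = 0.554, limma) and 0.24 ± 0.11 in αERKO (adjusted p = 0.508, limma), whereas 1419039_at gave 0.22 ± 0.13 in WT (adjusted p = 0.762) and -0.21 ± 0.13 in αERKO (adjusted p = 0.679). For Cyp2a12 the difference was 0.04 ± 0.08 in WT (adjusted p = 0.951) and 0.20 ± 0.08 in αERKO (adjusted p = 0.421), where all 3 high-fat samples exceeded all 3 normal diet samples. The Cyp2a4 and Cyp2a5 probe set differed by 0.32 ± 0.15 in WT (adjusted p = 0.639), and by 0.09 ± 0.09 without WT normal replicate 3 (adjusted p = 0.917), so that its size rested on 1 array. In αERKO its difference was 0.18 ± 0.15 (adjusted p = 0.767). Cyp2d10 and Cyp2d26 had differences of 0 to 2 decimals in WT, with 95% intervals of 0.889-fold to 1.12-fold and 0.902-fold to 1.11-fold, and of -0.14 ± 0.08 and -0.05 ± 0.07 in αERKO. Averaged over both genotypes, a comparison added like the one above, diet called 0 of the 7 and 0.492% of all tested, with 3 of 7 and 11.1% at an unadjusted p under 0.05.

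The interaction, which is the diet difference in αERKO minus that in WT, called 0 of the 7 probe sets and 0% of all tested by limma. At an unadjusted p under 0.05 there were 2 of 7, Cyp2d9 (-0.48 ± 0.21, adjusted p = 0.894) and Cyp2d22 by 1419039_at (-0.44 ± 0.19, adjusted p = 0.894), against 5.45% of all tested. The 95% interval for Cyp2d9 was -0.93 to -0.04 on the log2 scale, so a smaller genotype difference on high-fat diet, 9.72-fold against 13.6-fold, did not pass over all probe sets.

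Other genes of the subfamilies and of their clusters were taken from lists. Of 16 further Cyp2d and Cyp2a genes and pseudogenes in RefSeq, 4 had a probe set of their own, Cyp2d12, Cyp2d13, Cyp2d34 and Cyp2d40. Of these 4, 0 were called on either diet, where 0.677% (normal diet) and 1.29% (high-fat diet) of all tested probe sets were. Cyp2d13, which RefSeq lists as a transcribed pseudogene, ranged from 1189 to 2158 by its probe set 1425365_a_at, with genotype differences of 0 ± 0.19 (adjusted p = 0.996) on normal diet and 0.05 ± 0.19 on high-fat diet (adjusted p = 0.935). Its other probe set ranged from 744 to 2428, with differences of -0.32 ± 0.27 and -0.54 ± 0.27 (adjusted p = 0.721 and 0.406). Cyp2d12, Cyp2d34 and Cyp2d40 gave signals between 38 and 325 on all arrays, and their differences carried standard errors of 0.33 to 0.42. Of 11 protein-coding neighbours of the Cyp2d genes, 7 were tested and 0 called on either diet. At the same shares over all probe sets, 0 of 7 does not set these neighbours apart. Smdt1, a subunit of the mitochondrial calcium uniporter, had the largest difference of these on high-fat diet, 0.43 ± 0.10 (adjusted p = 0.0637).

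Of 17 neighbours of the Cyp2a genes, 8 were tested, beside shares of 0.677% (normal diet) and 1.29% (high-fat diet) called over all probe sets. On normal diet 1 was higher in αERKO, Cyp2f2, a P450 of periportal hepatocytes (0.62 ± 0.13), and 2 were lower, Cyp2b13 (-7.36 ± 0.29) and Cyp2b9 (-1.52 ± 0.17), both female-biased P450s. On high-fat diet Cyp2f2 (0.67 ± 0.13) and Cyp2b13 (-5.75 ± 0.29) were called again and Cyp2b9 was not (-0.37 ± 0.17, adjusted p = 0.351). The medians of the 8 were 0.04 and -0.065. Cyp2a4, Cyp2a5 and Cyp2a12 thus lay between genes called in opposite directions and were themselves not called on either diet.

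**Figure D4:**
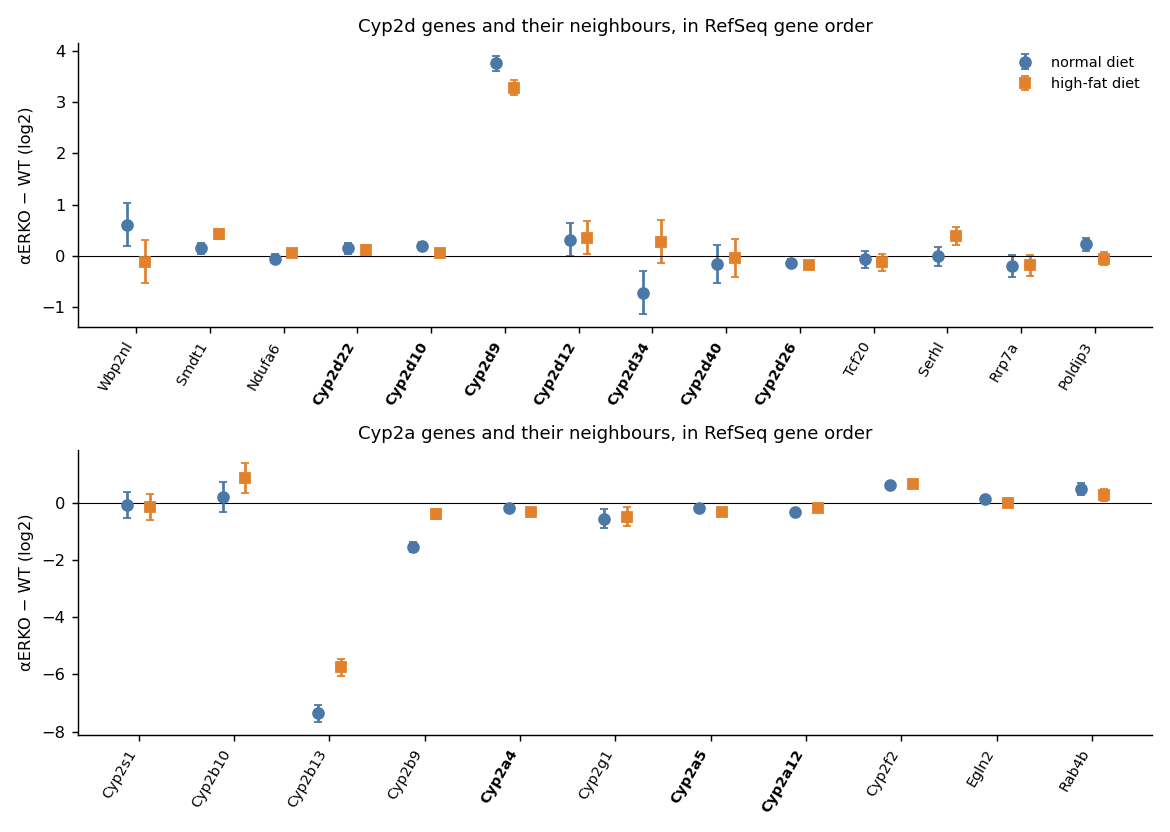
Log2 difference αERKO minus WT (vertical axes, bars are standard errors) on normal diet (circles) and high-fat diet (squares) for tested genes of the Cyp2d and Cyp2a clusters and their neighbours, in RefSeq gene order without distances; subfamily genes are in bold, and the shared Cyp2a4 and Cyp2a5 value is drawn at both genes, with Cyp2d22 by 1419040_at. In the Cyp2d panel Cyp2d9 stands alone at 3.76 and 3.28, and in the Cyp2a panel Cyp2b13 reaches -7.36.

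Of 14 genes for electron donors and heme synthesis, 12 were tested, and 1 was called higher on each diet, where 0.677% (normal diet) and 1.29% (high-fat diet) of all probe sets were called in either direction, with list medians of 0.03 on normal and 0.07 on high-fat diet. This was Cyb5r3, which reduces cytochrome b5, with 6030 ± 359 in WT normal, 5530 ± 66.5 in WT high-fat, 8280 ± 268 in αERKO normal and 8450 ± 699 in αERKO high-fat. Its difference was 0.46 ± 0.09 (adjusted p = 0.0305, limma) on normal diet and 0.61 ± 0.09 on high-fat diet (adjusted p = 0.00299, limma). Of its 2 other tested probe sets, 1422185_a_at was called on high-fat diet alone (0.61 ± 0.11, adjusted p = 0.00985), and 1425329_a_at was not called on either (0.20 ± 0.15 and -0.04 ± 0.15). Cyb5a, cytochrome b5 itself, differed by -0.05 ± 0.08 and 0.05 ± 0.08, and Alas1, the first enzyme of heme synthesis, by -0.45 ± 0.27 and -0.38 ± 0.27, none of them called.

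Of 30 regulators of P450 or sex-biased genes, 29 were tested. On each diet 1 was called, against 0.677% (normal diet) and 1.29% (high-fat diet) of all tested probe sets. This was Cux2, a female-biased transcription factor of liver, lower in αERKO. Its log2 differences were -3.08 ± 0.47 on normal diet and -3.34 ± 0.47 on high-fat diet. Mean signals of Cux2 were 721 ± 105 (SD) in WT normal, 668 ± 139 in WT high-fat, 98.7 ± 100 in αERKO normal and 51.7 ± 15.5 in αERKO high-fat. The αERKO means lay near or below the array medians, 75.6 to 114, so these sizes depend on the 16 added to each signal. The list medians were -0.1 on both diets, beside -0.049 and -0.055 over all tested. Averaged over both diets, Trim24, a coregulator (-0.44 ± 0.09, adjusted p = 0.0196), and Ppara, the fatty acid receptor (-0.35 ± 0.09, adjusted p = 0.0445), were called too. That made 3 of the 29, against 3.21% of all tested probe sets. Stat5b, which carries the growth hormone signal, differed by -0.02 ± 0.18 on both diets. Bcl6, a male-biased repressor, differed by 0.50 ± 0.48 and 1.20 ± 0.48 (adjusted p = 0.761 and 0.269), and the growth hormone receptor Ghr by 0.20 ± 0.09 and 0.08 ± 0.09 (adjusted p = 0.427 and 0.744). Ubp1 and Gabpa, factors known to bind the Cyp2d9 promoter, and Rsl1, a repressor of male-biased liver genes, had differences between -0.29 and 0.20, none called.

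Over the 12 arrays, the 5 genes whose log2 signal correlated most closely with Cyp2d9 among 12259 were Gas2 (Pearson r = 0.987), the aldehyde dehydrogenase Aldh7a1 (0.971), the choline phosphotransferase Chpt1 (0.967), the fatty acid elongase Elovl3 (0.967) and the fatty acid hydroxylase Cyp4a12a (0.961). The 3 with the lowest were the transporter Slc22a26 (-0.983), the sulfotransferase Sult2a2 (-0.973) and Cyp3a44 (-0.973). The 12 points hold both genotypes, and each of these 8 genes differed between them in the direction of its correlation on both diets. Sizes varied: Gas2 differed by 0.75 and 0.71 on the 2 diets and Aldh7a1 by 0.49 and 0.40, against 3.76 and 3.28 for Cyp2d9.

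For the Cyp2a4 and Cyp2a5 probe set the highest were Iigp1, an interferon-induced GTPase (Pearson r = 0.916), the peptidase Dpp4 (0.906), the transcription factor Bhlhe40 (0.904), the cyclin Ccnd2 (0.892) and the interferon-induced Oasl2 (0.89), and the lowest were Dop1b (-0.889), Fam214a (-0.887) and the noncoding RNA Neat1 (-0.866). The genotype differences of these 8 genes lay between -0.47 and 0.52. The low value of WT normal replicate 3 is among the 12 points of each of these correlations.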

How the data were processed

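For every probe set and array the authors deposited an intensity on a linear scale, the MAS5 signal, made with Affymetrix Expression Console and MAS5 per the submitters' processing notes; versions are not given in the sources used here. MAS5 treats each array separately, and each array had been scaled to a common trimmed mean before deposit, as the values show. Bright signals such as those of most of these genes scatter little on a log scale; dim ones scatter widely.

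Probe sets above the array median on at least 3 of 12 arrays (25412 of 45101, including all 7 described) were tested as log2(signal + 16), which understates differences of dim genes. A linear model with 4 group means was fitted to all 12 arrays in R 4.3.3 with limma 3.58.1 (eBayes with an intensity trend, 8 residual and 6.26 prior degrees of freedom). Two-sided p-values were adjusted over all tested probe sets (Benjamini-Hochberg); calls are at an adjusted p under 0.05. Probe sets rather than genes were tested so that the one listing Cyp2a4 and Cyp2a5 could be kept. Symbols came from the platform annotation, updated through Entrez identifiers: 34958 probe sets had 1 symbol, 932 several and 9211 were not listed. Listed genes are given by their brightest probe set with 1 symbol. Precision is limited by having 3 arrays a group: a difference between 2 groups had a median standard error of 0.234. No slide or scan date was used here. No 2 arrays held identical values (0 identical pairs).

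The rule for named genes was every probe set of the 8 genes, and the closest correlations with Cyp2d9 and the Cyp2a4 and Cyp2a5 probe set. It also took genes called in a genotype comparison from the lists other than cell type markers. Called cell type markers were not named unless they were on another list. Smdt1 was picked for the size of its difference, and the further Cyp2d genes as all those with a probe set. Other listed genes given as values were picked for their known role. The genes and lists were chosen with earlier results of these data known. The fitting steps were tested on simulated data. Promoters were compared by global alignment (Biopython 1.88) with free end gaps.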

Additional observations from a re-analysis of the deposited data

How the results depend on the processing

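The count of called probe sets among the 7 stayed at 1 for genotype on each diet and at 0 for diet in each genotype and for the interaction under all alternatives run (25 each, 24 for the interaction). Over these, the Cyp2d9 difference ranged from 3.6 to 3.9 (adjusted p 7.12e-10 to 4.38e-06) on normal diet and from 3.06 to 3.38 (adjusted p 1.93e-09 to 1.34e-05) on high-fat diet. For the added genotype average the count fell from 2 to 1 with no filter on low signal, median centring, no intensity trend, with pancreatic and muscle scores as covariates and without the 4 arrays high in acinar transcripts, and leaving out 1 array it ranged from 1 to 3. The probe set lost in the first 5 was Cyp2a12.

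In all, 37 uncalled differences changed sign, 3 of them over 0.1 in size in the main setting. With quantile normalization these were Cyp2d10 (0.08) and Cyp2d26 (0.11) for diet in WT, and Cyp2d22 by 1419039_at (-0.01) and Cyp2d26 (0.04) for the diet average. With median centring they were Cyp2d26 for genotype on normal diet (0), Cyp2d10 and Cyp2d26 for diet in WT (0.05 each), Cyp2d22 by 1419039_at for the genotype average (0.11) and Cyp2d26 for the diet average (0). With array quality weights they were the Cyp2a4/Cyp2a5 interaction (0) and Cyp2d22 by 1419039_at for the diet average (0), and Cyp2d26 became called for the genotype average (-0.17, adjusted p = 0.0488). Without the 4 acinar arrays, which leaves 1 WT high-fat array assumed to vary like the other groups, they were Cyp2d26 (0.06) and Cyp2a12 (-0.07) for diet in WT and Cyp2d22 by 1419039_at for the genotype average (0.03). With the scores as covariates they were Cyp2d10 and Cyp2d26 for diet in WT (0.01 each), and Cyp2d22 by 1419039_at for the genotype (0.09) and diet (-0.01) averages. Leaving out 1 array gave ranges across 0 for the Cyp2a4/Cyp2a5 interaction (-0.29 to 0.09), Cyp2d10 and Cyp2d26 for diet in WT (-0.05 to 0.03 and -0.03 to 0.03), Cyp2d22 by 1419039_at for the diet (-0.08 to 0.06) and genotype (-0.07 to 0.07) averages, and Cyp2d22 by 1419040_at for the interaction (-0.13 to 0.02). The cause was not tested.

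With the replicate number as a block (replicate block), Cyp2d9 differed by 3.76 (adjusted p = 3.98e-08) between genotypes on normal and 3.28 (adjusted p = 2.63e-07) on high-fat diet, and calls over all probe sets moved from 172 to 159 and from 327 to 285; the block changed no call among the 7. Deviations from group means correlated from -0.27 to 0.21 over 18 pairs of samples with the same number, 5 of them over 0.1, and from -0.2 to 0.24 over 36 pairs with different numbers, 7 of them over 0.1. Of 12 arrays, 6 correlated best with their own number. As not every pair with the same number was over 0.1, and the labels state no shared origin, the numbers were not taken to pair the samples.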

Other observations

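Cyb5r3, the 1 called gene among the P450 partners, lies beyond the Cyp2d cluster with 5 protein-coding genes between it and Cyp2d26 in RefSeq's order, just outside the neighbours listed above; this position was looked up after its values were seen. By its brightest probe set the signals were 5472 to 6257 in the 6 WT samples and 8018 to 9260 in the 6 αERKO samples, and by 1422185_a_at 2571 to 3707 and 3885 to 4721, without overlap in either case. By the dimmer 1425329_a_at the ranges were 764 to 952 and 746 to 1247, which overlap.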
